A study of Mus musculus with 16 samples.

Results

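Loss of thyroid hormone supply and loss of the corepressor NCoR1 were combined in mouse liver, and the acetylation of histone H3 at lysine 27 (H3K27ac) was compared with that of wild-type liver on ordinary food. H3K27ac marks active promoters and enhancers and was read by chromatin immunoprecipitation and sequencing (ChIP-seq). The comparison used 6 of the 12 H3K27ac libraries of the series, which holds 16 libraries with the inputs, and all 52645 regions of the shared count table. The first group was wild type (WT) on chow, with the libraries titled Chow_WT_27ac_96, Chow_WT_27ac_99 and Chow_WT_27ac_106. The second was NCoR1 knockout (KO) on PTU/LID, a diet low in iodine that carried 0.15% propylthiouracil (PTU), with Ptulid_NCoRKO_27ac_211, Ptulid_NCoRKO_27ac_232 and Ptulid_NCoRKO_27ac_239. Values of 3 libraries are given in this order. The diets started at 6 weeks of age and ran for 3 weeks, livers were taken on day 21, the strain background was given as C57BL/6J for both genotypes, and the tissue, mark and assay were the same in both groups. The 3 WT libraries on PTU/LID and the 3 KO libraries on chow gave values for reading the comparison. The labels used here state neither which part of Ncor1 was deleted nor which cells lost it, nor do they tie each library to its own mouse, and the p-values therefore rest on the variation among libraries, which may be technical. The comparison changes diet and genotype at once, and asks which loci stood at the level of WT on chow when both hormone and corepressor were missing and which did not.

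Thyroid hormone acts through the receptors THRA and THRB, which sit on DNA with a retinoid X receptor. Without hormone, the receptors hold corepressor complexes, in which NCoR1 brings the histone deacetylase HDAC3 to the target gene, and acetylation there is removed. Hormone releases the corepressor and lets coactivators with acetyltransferase activity bind. Propylthiouracil blocks hormone synthesis in the thyroid and the conversion of T4 to T3 by the deiodinase DIO1. In liver, thyroid hormone is known to raise genes such as Dio1, Thrsp, Me1 and Gpd2, and NCoR1 also serves other nuclear receptors, such as the liver X receptors and PPARα.

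The 6 libraries held between 2965505 and 7416187 counts, with means of 4087936 ± 1530534 (SD, n = 3) for WT on chow and 6073347 ± 2045496 for KO on PTU/LID (2-sided exact permutation test, p = 0.2, where 0.1 is the smallest p that 3 against 3 allows). Mitochondrial counts made up 0.822 to 6.12% of the total in WT on chow, against 0.717 to 2.27% for KO on PTU/LID (exact permutation p = 0.2). Libraries Chow_WT_27ac_96, Chow_WT_27ac_99 and Ptulid_NCoRKO_27ac_211 had a share above 2%, and libraries Chow_WT_27ac_106, Ptulid_NCoRKO_27ac_232 and Ptulid_NCoRKO_27ac_239 a share below it. The libraries also differed in how much of their signal lay in long regions: the longest 25% of regions held 63.2, 63.0 and 66.3% of the nuclear counts in the WT chow libraries and 65.0, 68.6 and 68.8% in those of KO on PTU/LID. Library Ptulid_NCoRKO_27ac_211 therefore stood with the WT libraries on this measure and library Chow_WT_27ac_106 nearer to the other KO libraries. All pairs of replicates differed by more than counting noise, with a chi-square per degree of freedom of 1.905 or more.

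Promoters of 6 genes show the kinds of locus that the comparison separated, and each was covered at least in part by a counted region. Dio1 and Slco1a1 were low on PTU/LID in WT and in KO alike, and Stat5a and Cyp3a11 were low in WT but not in KO. Mlxipl was high on PTU/LID in both genotypes at the start shown, and Acly passed the test against WT on chow only in KO. The sequences are the 250 bases before the RefSeq start in GRCm38.p6, the assembly of mm10, on the strand of the gene. Capitals mark the thyroid hormone receptor half-site AGGTCA, or TGACCT where it lies on the other strand.

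Dio1 (chr4:107307169-107307418, minus strand): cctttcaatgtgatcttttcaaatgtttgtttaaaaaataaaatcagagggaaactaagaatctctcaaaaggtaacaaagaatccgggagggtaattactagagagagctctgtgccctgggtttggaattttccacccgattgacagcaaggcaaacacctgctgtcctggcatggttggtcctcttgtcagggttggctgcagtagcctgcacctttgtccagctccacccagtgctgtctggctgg
Slco1a1 (chr6:141946963-141947212, minus strand): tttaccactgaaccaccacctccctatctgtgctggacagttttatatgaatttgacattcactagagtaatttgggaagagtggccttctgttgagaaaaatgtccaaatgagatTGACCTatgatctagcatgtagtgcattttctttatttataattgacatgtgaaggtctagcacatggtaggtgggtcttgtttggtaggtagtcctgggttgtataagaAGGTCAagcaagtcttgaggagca
Stat5a (chr11:100859406-100859655, plus strand): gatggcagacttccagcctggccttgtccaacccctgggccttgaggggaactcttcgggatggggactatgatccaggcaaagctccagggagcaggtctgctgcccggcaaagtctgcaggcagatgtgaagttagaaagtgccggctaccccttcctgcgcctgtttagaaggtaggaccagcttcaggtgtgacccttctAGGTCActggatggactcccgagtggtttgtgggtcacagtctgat
Cyp3a11 (chr5:145879855-145880104, minus strand): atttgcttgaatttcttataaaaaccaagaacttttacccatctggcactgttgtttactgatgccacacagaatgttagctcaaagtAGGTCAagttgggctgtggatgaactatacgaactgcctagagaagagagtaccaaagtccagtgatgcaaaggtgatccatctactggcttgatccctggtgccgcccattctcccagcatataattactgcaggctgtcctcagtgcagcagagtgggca
Mlxipl (chr5:135089640-135089889, plus strand): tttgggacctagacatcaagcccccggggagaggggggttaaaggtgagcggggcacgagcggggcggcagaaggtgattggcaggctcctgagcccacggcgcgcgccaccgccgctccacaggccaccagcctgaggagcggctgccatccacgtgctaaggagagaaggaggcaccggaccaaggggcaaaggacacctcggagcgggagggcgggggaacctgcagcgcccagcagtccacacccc
Acly (chr11:100528001-100528250, minus strand): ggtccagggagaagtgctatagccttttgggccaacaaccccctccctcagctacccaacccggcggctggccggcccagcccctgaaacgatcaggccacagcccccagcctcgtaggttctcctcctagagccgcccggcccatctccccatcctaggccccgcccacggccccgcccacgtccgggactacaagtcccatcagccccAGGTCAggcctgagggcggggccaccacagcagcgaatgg

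The half-site occurred 2 times in the Slco1a1 window, 1 time in each of the windows of Stat5a, Cyp3a11 and Acly, and was not found in those of Dio1 and Mlxipl. On either strand, 14.0% of the 32851 RefSeq promoter windows of this length held it. The direct repeat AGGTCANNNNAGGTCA, in which 4 bases separate 2 half-sites, was in 0.0152% of all windows and in none of the 6. A match describes letters only, and windows without a match say nothing of where the receptors bind.

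At these promoters the regions behaved as follows. The region over the start of Dio1, the deiodinase that turns T4 into T3 (chr4:107303100-107307183), held 90.6, 96.6 and 94.4 CPM (counts scaled to a common library total) in WT on chow, against 28.6, 22.4 and 22.6 for KO on PTU/LID. The groups lay far apart, with a log2 difference of -1.95 ± 0.18 (standard error; edgeR quasi-likelihood test with Benjamini-Hochberg adjustment over all regions, adjusted p = 4.44e-09), and WT on PTU/LID averaged 22.9 CPM. The Slco1a1 promoter region, of a male-biased organic anion transporter, had 8.55, 10.5 and 6.12 CPM in WT on chow against 3.32, 3.31 and 0.875 in KO on PTU/LID (log2 difference -1.75 ± 0.37, adjusted p = 0.00149). KO on PTU/LID overlapped with WT on PTU/LID there. For Stat5a, a transcription factor of growth hormone signalling, the 3 WT chow libraries at 13.0, 6.07 and 11.1 CPM overlapped with the KO libraries on PTU/LID at 8.18, 9.25 and 11.7, while WT on PTU/LID stood below both at 4.78, 3.66 and 2.46. The promoter of Cyp3a11, a drug-metabolising cytochrome P450, held 30.7, 26.5 and 28.6 CPM in WT on chow, against 15.8, 15.5 and 12.7 for WT and 27.4, 31.2 and 24.1 for KO on PTU/LID. KO on PTU/LID thus overlapped with WT on chow there, and the 3 WT libraries on PTU/LID were low. Mlxipl encodes ChREBP, the factor that turns on glycolytic and lipogenic genes when carbohydrate is plentiful. The region over this start rose from 10.8, 9.39 and 8.93 CPM in WT on chow to 31.5, 45.4 and 39.8 in KO on PTU/LID (log2 difference 2.02 ± 0.23, adjusted p = 2.45e-07). WT on PTU/LID, at 20.8 CPM on average, and KO on chow, at 20.2, lay between them. Of 9 regions counted for Mlxipl, this was the only 1 called higher in WT on PTU/LID than in WT on chow. The promoter region of Acly, which makes cytosolic acetyl-CoA from citrate, rose by 1.12 ± 0.19 on the log2 scale (adjusted p = 0.000169), from 44.4 ± 13.8 to 97.7 ± 18.7 CPM (SD, n = 3).

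Across the table more regions passed for the combined change than for PTU/LID in WT or for the knockout on PTU/LID. Of 52606 regions tested, 6566 passed an adjusted p of 0.05 between KO on PTU/LID and WT on chow, which is 12.5% of them. Higher in KO on PTU/LID were 3549 regions (6.75%) and lower 3017 (5.74%). For comparison, 3.7% of regions passed between WT on PTU/LID and WT on chow, and 3.86% between KO and WT on PTU/LID. These comparisons share libraries. The median size of the called log2 differences was 0.85 among higher and 1.04 among lower regions, and 1173 higher and 1681 lower regions changed by more than 2-fold. Without library Ptulid_NCoRKO_27ac_239 or library Ptulid_NCoRKO_27ac_232 the number called was 2879 and 2896, without library Chow_WT_27ac_99 it was 3828 and without library Chow_WT_27ac_96 it was 4134, whereas it was 8683 without library Ptulid_NCoRKO_27ac_211. Fits within the libraries of low or of high mitochondrial share each had 1 group with a single library, whose spread was taken from the other groups, so neither count is a replicated check. In the low set WT on chow had library Chow_WT_27ac_106 alone and 6376 regions passed, and in the high set KO on PTU/LID had library Ptulid_NCoRKO_27ac_211 alone and 1033 passed.

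The direction of change moved with the length of the region. In the shortest 25% of regions 0.979% were called higher and 5.8% lower, and in the longest 25% 14.8% higher and 5.03% lower. The median log2 difference ran from -0.25 in the shortest to 0.15 in the longest. With cyclic loess, a scaling that levels such a trend, the calls were 411 higher and 229 lower in the shortest 25% and 1231 higher and 1182 lower in the longest. The part of this trend in the single results was not tested, and for the gene groups counts under cyclic loess are given as well.

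**Figure D1:**
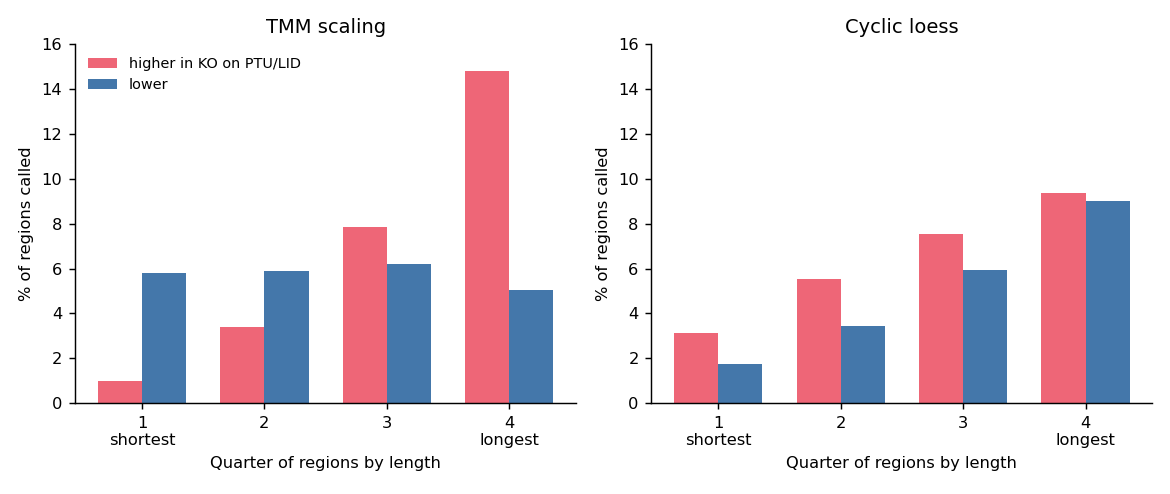
Share of regions called higher or lower in KO on PTU/LID than in WT on chow (edgeR, adjusted p below 0.05; y axis, % of regions) in 4 classes of regions of like number by length (x axis), under the TMM scaling used in the text and under cyclic loess. With TMM the higher calls rise from 0.979% in the shortest class to 14.8% in the longest, and with cyclic loess both directions rise with length.

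Counts were also summed per gene, over the regions inside it or nearest to it within 50 kb. Of 11447 genes tested, 2214 passed (19.3%), with 1286 higher (11.2%) and 928 lower (8.11%) in KO on PTU/LID. Between WT on PTU/LID and WT on chow 7.69% of genes passed, and between KO and WT on PTU/LID 6.28%. Gene and region values are scaled to different totals, so their CPM are not on 1 scale. Levels are relative to the sum over all regions, and in whole liver fewer cells of a type and less acetylation per cell cannot be told apart.

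The loci that PTU/LID changed in WT were then followed into the knockout. A locus counted as still changed when KO on PTU/LID differed from WT on chow in the same direction, and as returned when KO differed from WT on PTU/LID in the opposite direction and the 95% interval against WT on chow lay within 1.5-fold. It counted as past the normal level when KO on PTU/LID was called on the other side of WT on chow, and as undecided otherwise. Of 997 regions that were lower on PTU/LID in WT, 546 were still lower in the knockout, 78 had returned, 10 were past the level of WT on chow and 363 were undecided. Of 952 regions that were higher, 546 were still higher, 29 had returned, none was past it and 377 were undecided. At gene level, 248 of 400 genes lower on PTU/LID were still lower, 60 had returned and 6 were past it. Of 480 genes higher on PTU/LID, 301 were still higher, 32 had returned and 1 was past it, namely Plxnb1, a semaphorin receptor outside the lists, named here because it was the only one (log2 difference -0.49 from WT on chow, adjusted p = 0.0499).

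Most of what differed from WT on chow had not been called on PTU/LID in WT: 2993 of the 3549 higher regions and 2471 of the 3017 lower ones. At the median, these uncalled regions leaned the same way. They were chosen by their difference from WT on chow, and the medians below share those WT chow libraries. The lean is therefore partly fixed by the choice of regions. For the 2993 higher ones the median log2 difference from WT on chow was 0.35 for WT on PTU/LID. It was 0.39 for the knockout on chow and 0.84 for the combined change. For the 2471 lower ones the medians were -0.54, -0.54 and -1.04. Of the uncalled regions, 850 higher and 137 lower ones were also called the same way between KO and WT on PTU/LID, and 256 and 183 between KO and WT on chow.

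The counts of these classes describe the 3 comparisons, which share libraries. Of the 1092 regions still changed, 915 kept that class under cyclic loess and 922 with DESeq2, but 431 without library Ptulid_WT_27ac_280 of WT on PTU/LID, which leaves fewer regions in the starting set. Of the 107 returned regions, 80 kept the class under cyclic loess and 29 without library Ptulid_NCoRKO_27ac_232. In that setting 59 of them were undecided. In each alternative run, more regions were still changed than had returned.

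**Figure D2:**
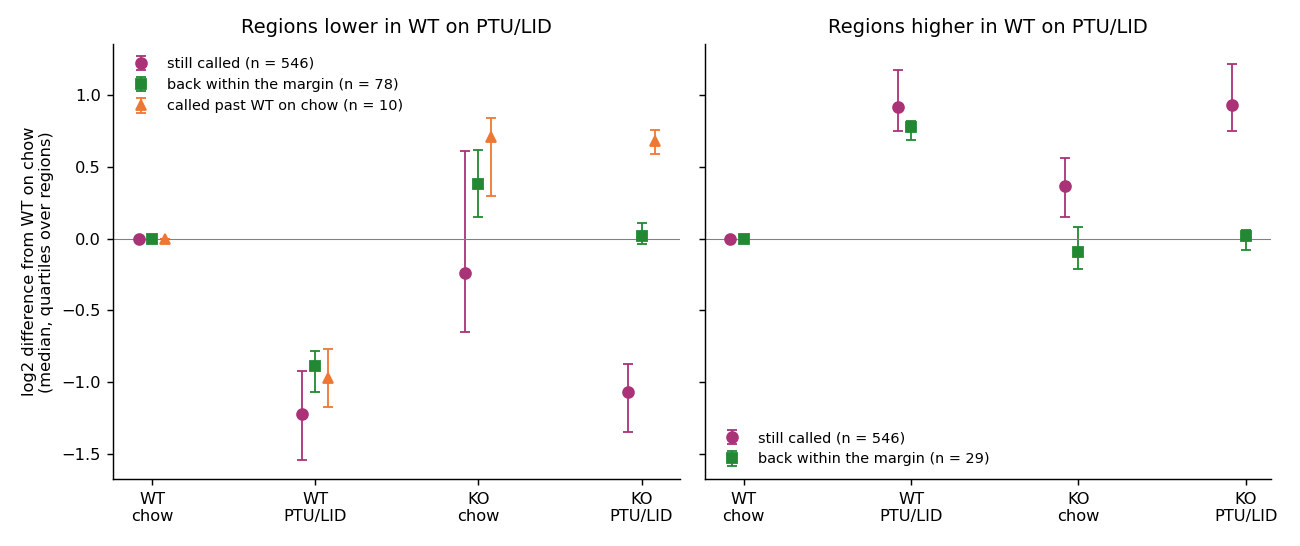
Median log2 difference from WT on chow (y axis) in each group (x axis) for regions that PTU/LID lowered (left) or raised (right) in WT, by what KO on PTU/LID showed; bars span the quartiles over regions, and WT on chow is 0 by definition. The groups were chosen from these values, so their positions in WT and KO on PTU/LID are fixed by the choice. In KO on chow the regions that were past the normal level stood at a median of 0.71 and the returned ones of the left panel at 0.38.

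Dio1 did not return. Over all its regions Dio1 held 188, 204 and 181 CPM in WT on chow against 61.4, 41.8 and 43.5 for KO on PTU/LID, a log2 difference of -1.98 ± 0.18 (adjusted p = 1.71e-06). WT on PTU/LID, at 68.2, 44.4 and 38.7, overlapped with KO on PTU/LID, and the log2 difference between these 2 groups was -0.04 ± 0.19 (adjusted p = 0.933). On chow the knockout had more acetylation at Dio1 than WT, 300.4 against 190.7 CPM (adjusted p = 0.0313). Of 7 regions counted for the gene, 5 were lower in KO on PTU/LID than in WT on chow and none was higher. One of them, 7.72 kb downstream of the start (chr4:107298841-107300051), was also lower in KO than in WT on PTU/LID, with 6.14, 2.76 and 3.21 CPM against 8.96, 6.46 and 6.98 (log2 difference -0.96, adjusted p = 0.0499).

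Other loci stayed low beside Dio1. Ucp2, a mitochondrial carrier, held 64.4, 69.4 and 67.0 CPM in WT on chow against 46.1, 41.2 and 46.1 for KO on PTU/LID (log2 difference -0.59 ± 0.14, adjusted p = 0.00446), and differed by 0.06 ± 0.14 between KO and WT on PTU/LID. Slco1a1 as a whole gene fell from 17.4, 25.9 and 15.1 to 7.53, 7.18 and 3.27 CPM (log2 difference -1.71 ± 0.29, adjusted p = 0.000289). Unlike Dio1, it was low in KO on chow too, at 9.35 CPM on average.

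The major urinary proteins, pheromone carriers that male liver secretes under growth hormone, were a family that stayed low. Of 23 Mup genes tested, 18 were lower in KO on PTU/LID than in WT on chow, beside 8.11% of all genes. Mup1 fell from 426, 340 and 404 CPM to 158, 176 and 205 (log2 difference -1.11 ± 0.13, adjusted p = 9.1e-06). It was still higher than in WT on PTU/LID, at 139, 116 and 95.4, by 0.63 ± 0.14 (adjusted p = 0.00549), so it had moved part of the way. The summed Mup signal was 7062 ± 803 CPM in WT and 14380 ± 1601 in KO on chow, and 3284 ± 374 in WT and 4267 ± 478 in KO on PTU/LID (SD, n = 3). Mup21 was the only member that rose, from 120.8 ± 13.0 to 251.2 ± 21.2 CPM (log2 difference 1.06 ± 0.14, adjusted p = 3.07e-05). The Mup genes are near-identical copies, so reads may be split between them and single members are uncertain.

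**Figure D3:**
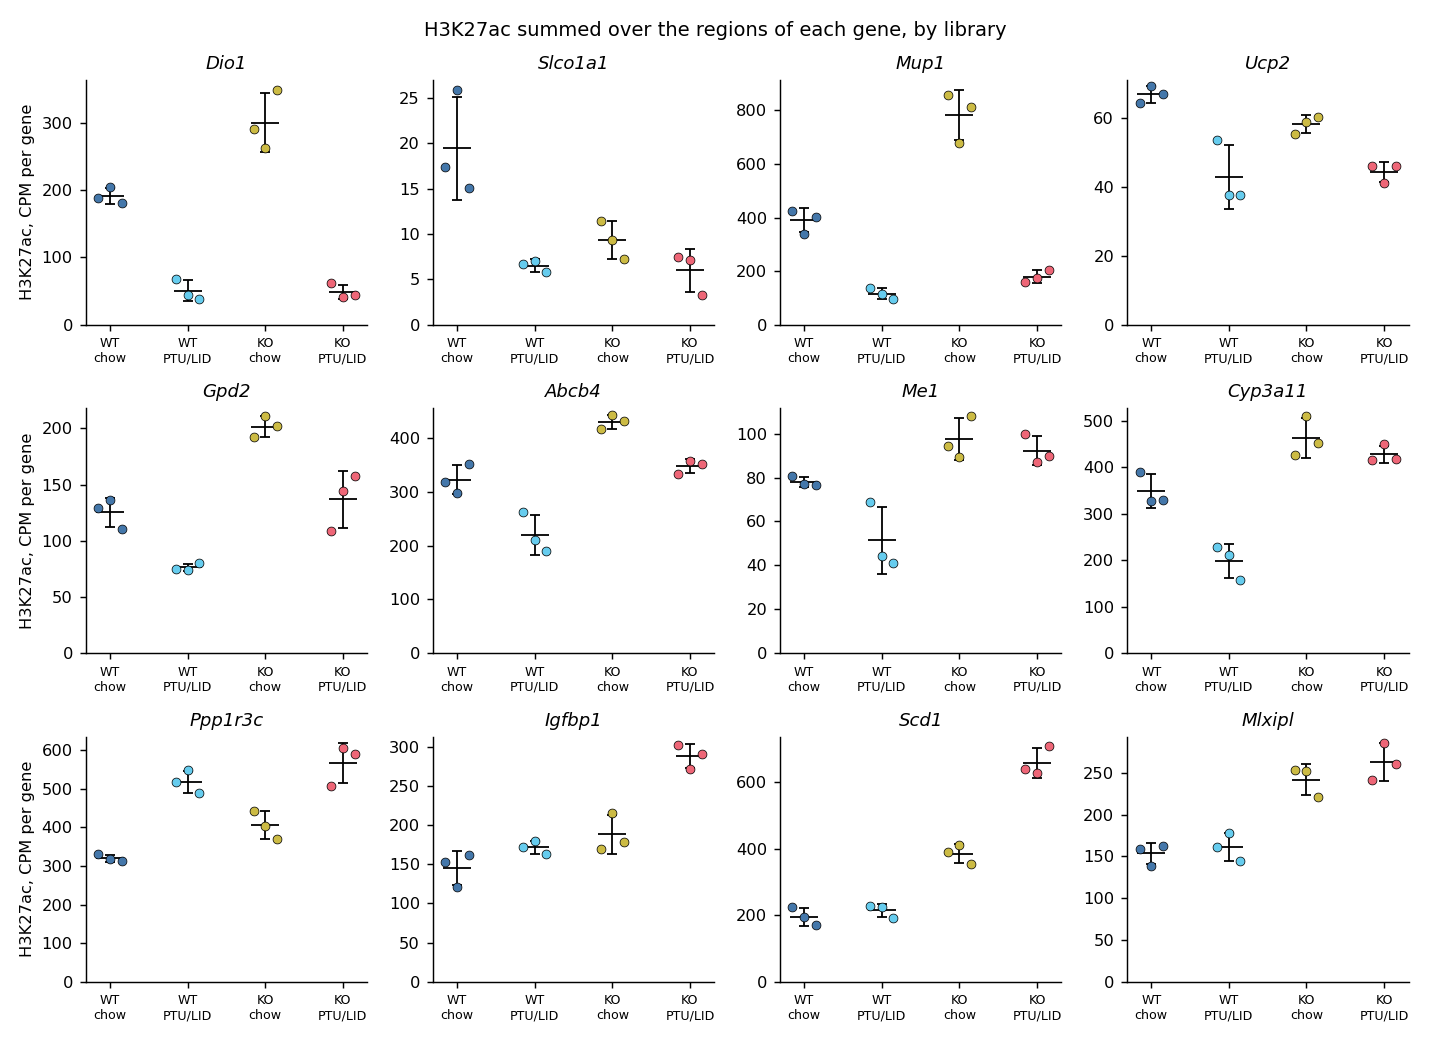
H3K27ac summed over the regions of 12 genes (y axis, CPM per gene, from 0) in the 3 libraries of each group (x axis); points are libraries, and bars give the mean and SD. In the top row both groups on PTU/LID lie below WT on chow, and at Mup1 KO on PTU/LID lies above WT on PTU/LID. In the middle row KO on PTU/LID overlaps with WT on chow or lies above it. In the bottom row KO on PTU/LID lies above WT on chow, from 507 to 605 CPM for Ppp1r3c against 312 to 330, and from 626 to 709 for Scd1 against 169 to 224.

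Among the genes that had returned were Gpd2, the mitochondrial glycerol-3-phosphate dehydrogenase that thyroid hormone is known to induce, and Me1, the malic enzyme that supplies NADPH for fat synthesis. Gpd2 held 129, 136 and 111 CPM in WT on chow, against 75.3, 74.5 and 80.3 for WT and 109, 144 and 158 for KO on PTU/LID, and a mean of 201.5 in KO on chow, where each library lay above those of the other groups. KO on PTU/LID lay above all WT libraries on PTU/LID (log2 difference 0.84 ± 0.13, adjusted p = 0.000246) and overlapped with WT on chow (0.14, 95% interval -0.12 to 0.4). The log2 difference of KO on chow from WT on chow was 0.69 ± 0.13 (adjusted p = 0.00291), and PTU/LID lowered Gpd2 in KO as well, by -0.55 ± 0.12 (adjusted p = 0.0058), an effect whose difference from that in WT was not called (0.15, adjusted p = 0.824). The 3 single regions of Gpd2 that were lower on PTU/LID in WT were all undecided in KO. The difference of the whole gene from WT on chow was 0.43 within the libraries of low mitochondrial share, where library Chow_WT_27ac_106 stood alone for its group, and -0.29 within those of high share, where library Ptulid_NCoRKO_27ac_211 did. Me1 stood at 80.5, 77.2 and 76.5 CPM in WT on chow, against 68.9, 44.2 and 41.2 for WT and 99.9, 87.1 and 89.9 for KO on PTU/LID, above both other groups, while KO on chow overlapped with KO on PTU/LID at 94.6, 89.5 and 108. Its difference from WT on PTU/LID was 0.86 ± 0.15 (adjusted p = 0.000886) and that from WT on chow 0.24 (95% interval -0.06 to 0.54). Of 15 alternative settings, which include leaving out each WT and KO library of the 3 groups, Gpd2 kept the class of returned genes in 15 and Me1 in 9. In the others Me1 was undecided or not called lower on PTU/LID in WT.

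Returned loci also included genes of bile and drug handling and of hormone signalling. Abcb4, the phospholipid transporter of the bile canaliculus, held 318, 298 and 352 CPM in WT on chow, against 262, 210 and 190 for WT and 333, 358 and 352 for KO on PTU/LID, and kept its class in 15 of 15 settings. KO on chow held 417, 442 and 431 CPM (0.41 ± 0.11 above WT on chow, adjusted p = 0.0367). The KO libraries on PTU/LID overlapped with WT on chow and lay above WT on PTU/LID by 0.66 ± 0.11 (adjusted p = 0.000625). Cyp27a1, which starts the alternative route of bile acid synthesis, differed by 0.02 from WT on chow (95% interval -0.24 to 0.27) and by 0.57 ± 0.13 from WT on PTU/LID (adjusted p = 0.00683), in 12 of 15 settings. Cyp3a11 was 1.11 ± 0.12 above WT on PTU/LID (adjusted p = 1.28e-05) and 0.29 above WT on chow (95% interval 0.04 to 0.55, adjusted p = 0.0912), and with a term for the mitochondrial share it counted as past the normal level. For the prolactin receptor gene Prlr the log2 difference from WT on PTU/LID was 0.78 ± 0.14 and for Stat5a 0.88 ± 0.16. These 2 kept the class in 9 and 10 of 15 settings. The Stat5a promoter region shown above kept it in 5 of 15. The single region of largest loss among the returned ones lay inside E2f8, which encodes a repressor of cell cycle genes (chr7:48877191-48879782). It held 65.6, 79.0 and 87.0 CPM in WT on chow, against 24.2, 27.6 and 17.5 for WT and 40.4, 93.2 and 75.7 for KO on PTU/LID, with library Ptulid_NCoRKO_27ac_211 the lowest of the 3. KO on chow held 152, 171 and 134 CPM, which was 0.98 ± 0.21 above WT on chow on the log2 scale (adjusted p = 0.0102), and PTU/LID lowered the region in KO by -1.11 ± 0.21 (adjusted p = 0.000761). For this region and for Gpd2, the word returned thus describes a level near that of WT on chow in a knockout that still responded to PTU/LID. PTU/LID also changed the returned regions assigned to Ddhd1 (-1.19 ± 0.19, adjusted p = 2.79e-05), Sult2a8 (-0.97 ± 0.16, 8.82e-05) and Ccnf (0.97 ± 0.22, 0.00549) in KO. Its effect in KO was not called at the named returned regions of Stat5a, Sftpa1, Gimap1, Fam234b, Tex22 and Gm42048. The E2f8 region kept the class in 9 of 15 settings.

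**Figure D4:**
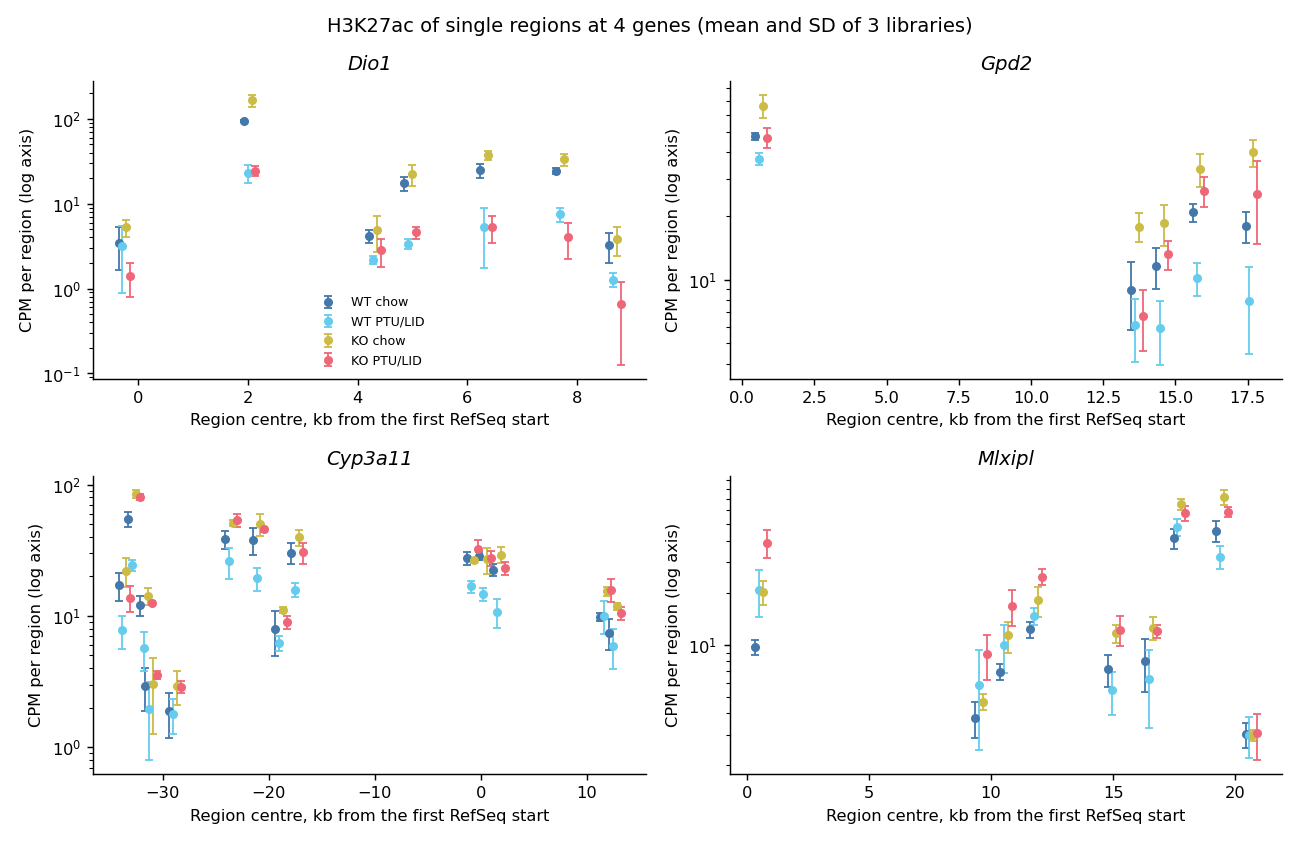
H3K27ac of single regions (y axis, CPM on a log axis; mean and SD of 3 libraries) against the distance of the region centre from the first RefSeq start (x axis, kb, positive in the direction of the gene) within 40 kb at Dio1, Gpd2, Cyp3a11 and Mlxipl. At Dio1 the main region at 2.03 kb holds 93.9 CPM in WT on chow against 24.5 for KO on PTU/LID; at Gpd2 the regions from 14.5 to 17.6 kb, and not the one at 0.65 kb, are called lower in WT on PTU/LID.

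A few loci were past the level of WT on chow. Elovl5, an elongase of polyunsaturated fatty acids, was lower on PTU/LID in WT (305, 288 and 244 CPM against 397, 358 and 396) and higher in KO on PTU/LID (468, 496 and 511; log2 difference from WT on chow 0.36 ± 0.11, adjusted p = 0.0241). Leaving out library Chow_WT_27ac_99 gave an adjusted p of 0.127, library Ptulid_NCoRKO_27ac_239 of 0.0971, library Ptulid_NCoRKO_27ac_232 of 0.0768 and library Chow_WT_27ac_96 of 0.0533, and under cyclic loess the difference was 0.15. Sc5d of cholesterol synthesis was called in the same way (0.32 ± 0.11, adjusted p = 0.0384), and lost its call without each of libraries Ptulid_NCoRKO_27ac_239 (0.197), Chow_WT_27ac_99 (0.181), Ptulid_NCoRKO_27ac_232 (0.137), Chow_WT_27ac_96 (0.0609) and Chow_WT_27ac_106 (0.0578). Among regions, 1 that lay 36.3 kb outside Cdk15 (chr1:59388368-59389250) kept this class in 15 of 15 settings. It held means of 14.2 ± 3.04 CPM in WT and 37.3 ± 6.34 in KO on chow, and of 6.32 ± 0.274 in WT and 27.9 ± 4.19 in KO on PTU/LID (SD, n = 3). KO on PTU/LID did not overlap with any other group except KO on chow, with a log2 difference from WT on chow of 0.96 ± 0.21 (adjusted p = 0.00195).

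The list of 18 tested genes that thyroid hormone is known to induce went both ways. In WT on PTU/LID 5 of them were lower than in WT on chow and none was higher, with a median log2 difference of -0.28. In KO on PTU/LID 5 were higher than in WT on chow and 3 lower, with a median of 0.18, beside -0.01 over all genes tested. Of all genes, 11.2% were higher and 8.11% lower. The 5 included Thrsp, a nuclear protein of lipogenic tissue, with 206, 256 and 269 CPM against 143, 167 and 173 (log2 difference 0.59 ± 0.14, adjusted p = 0.00411). Thrsp was not called lower in WT on PTU/LID (-0.31 ± 0.14, adjusted p = 0.169). The others were Acaca, Fasn, G6pc and Ppargc1a, and the 3 lower were Dio1, Ucp2 and Idh3a. Of the 8 calls in this list, 6 kept with any 1 of the 6 libraries left out, and 5 under cyclic loess, where the median was 0.04.

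Part of the genes of glucose handling stayed high. Over all genes, 11.2% were higher and 8.11% lower in KO on PTU/LID than in WT on chow. Of 21 tested in this list, 14 were higher and none lower, with a median log2 difference of 0.49. In WT on PTU/LID 7 were higher, and 6 of the 21 fell in the class of genes still changed. Another 8 were higher in KO on PTU/LID without being called on PTU/LID in WT. In KO on chow 4 of the 21 were higher than in WT on chow and none lower. Ppp1r3c, which targets protein phosphatase 1 to glycogen, held 330, 319 and 312 CPM in WT on chow, against 517, 548 and 489 for WT and 507, 605 and 590 for KO on PTU/LID (log2 difference from WT on chow 0.83 ± 0.10, adjusted p = 1.22e-05). Both groups on PTU/LID lay above all WT chow libraries and overlapped with each other. Others were called only in KO on PTU/LID among the 2 PTU/LID groups: Igfbp1, the insulin-repressed binding protein of IGFs, rose by 0.98 ± 0.12, Pygl, the liver glycogen phosphorylase, by 0.81 ± 0.13 and Irs2, the insulin receptor substrate, by 0.76 ± 0.11, and each was also higher than in WT on PTU/LID (adjusted p = 0.000367, 0.000607 and 0.00352). Of the 14 calls, 9 kept whichever of the 6 libraries was left out. Under cyclic loess 8 genes were higher and 1 lower.

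Genes of fatty acid and triglyceride synthesis rose in KO on PTU/LID, and part of the list was already higher in KO on chow. Of 24 genes tested, 14 were higher than in WT on chow and none lower (11.2% and 8.11% over all genes), with a median of 0.44. In WT on PTU/LID none was higher and 2, Me1 and Elovl5, were lower, with a median of 0.06. In KO on chow 7 were higher than in WT on chow and none lower, with a median of 0.32. Scd1, the stearoyl-CoA desaturase that makes oleate, had the largest gene-level rise of the list, from 224, 193 and 169 CPM in WT on chow to 638, 626 and 709 in KO on PTU/LID (log2 difference 1.76 ± 0.12, adjusted p = 1.41e-09). WT on PTU/LID stood with WT on chow at 228, 223 and 192, and KO on chow was between at 389, 411 and 354. Of 13 regions counted for Scd1, 12 were higher and none lower. One of them lay 8.26 kb outside the gene (chr19:44415738-44416202) and rose from 1.9, 3.59 and 1.32 to 12.8, 13.4 and 14.0 CPM (2.63 ± 0.35, adjusted p = 3.52e-06).

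The regulators and enzymes of the same pathway moved with Scd1. Mlxipl rose by 0.77 ± 0.11 (adjusted p = 6.7e-05) and Srebf1, the SREBP-1 gene that drives lipogenesis, by 0.69 ± 0.13 (adjusted p = 0.000715). Acaca and Acacb, the acetyl-CoA carboxylases, rose by 0.70 ± 0.11 and 0.66 ± 0.13, Fasn, the fatty acid synthase, by 0.66 ± 0.14, Acly by 0.79 ± 0.12 and Pnpla3, a lipid droplet protein, by 1.32 ± 0.28 (adjusted p between 9.85e-05 for Acaca and 0.00219 for Pnpla3). In KO on chow Mlxipl was already 0.65 above WT on chow (adjusted p = 0.00182), Srebf1 0.63 (0.00677), Fasn 0.53 (0.0328) and Acaca 0.47 (0.0146), and none of these 4 was called between KO on PTU/LID and KO on chow (differences of 0.06 to 0.23). Acly was not called in KO on chow (0.24, adjusted p = 0.282) and was 0.55 ± 0.12 higher in KO on PTU/LID than there (adjusted p = 0.00468). For all of these the 3 libraries of KO on PTU/LID lay above the 3 of WT on chow. The share of all genes separated in this way was not counted. Of the 14 calls 12 kept with any 1 library left out, 14 with a term for the mitochondrial share and 11 under cyclic loess, with none lower in these settings.

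H3K27ac also rose at part of the genes of fatty acid oxidation and ketone formation. Of 34 genes tested 15 were higher and none lower (11.2% and 8.11% over all genes), with a median of 0.36. In WT on PTU/LID 1 was higher and 1 lower, and in KO on chow 4 were higher. Crat, the carnitine acetyltransferase, rose from 33.5 ± 3.35 to 66.7 ± 9.5 CPM (log2 difference 1.0 ± 0.16, adjusted p = 0.00013). Acaa1b of the peroxisomal pathway rose by 0.81 ± 0.12 (adjusted p = 9.65e-05). Acot1, an acyl-CoA thioesterase with near-identical neighbours, rose from 42.4, 26.3 and 30.3 to 56.5, 71.7 and 65.5 CPM (0.99 ± 0.18, adjusted p = 0.000614). WT on PTU/LID, at 30.7 CPM on average, and KO on chow, at 33.2, both stood at the level of WT on chow, 33.0. The group rested more on single libraries than lipid synthesis did: 5 of the 15 calls kept with any 1 library left out and 7 under cyclic loess, where 1 gene of the list was lower. Cpt1a, which admits fatty acids to mitochondria, overlapped between the groups (241, 195 and 216 against 210, 229 and 263 CPM; 0.11 ± 0.11, adjusted p = 0.521).

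**Figure D5:**
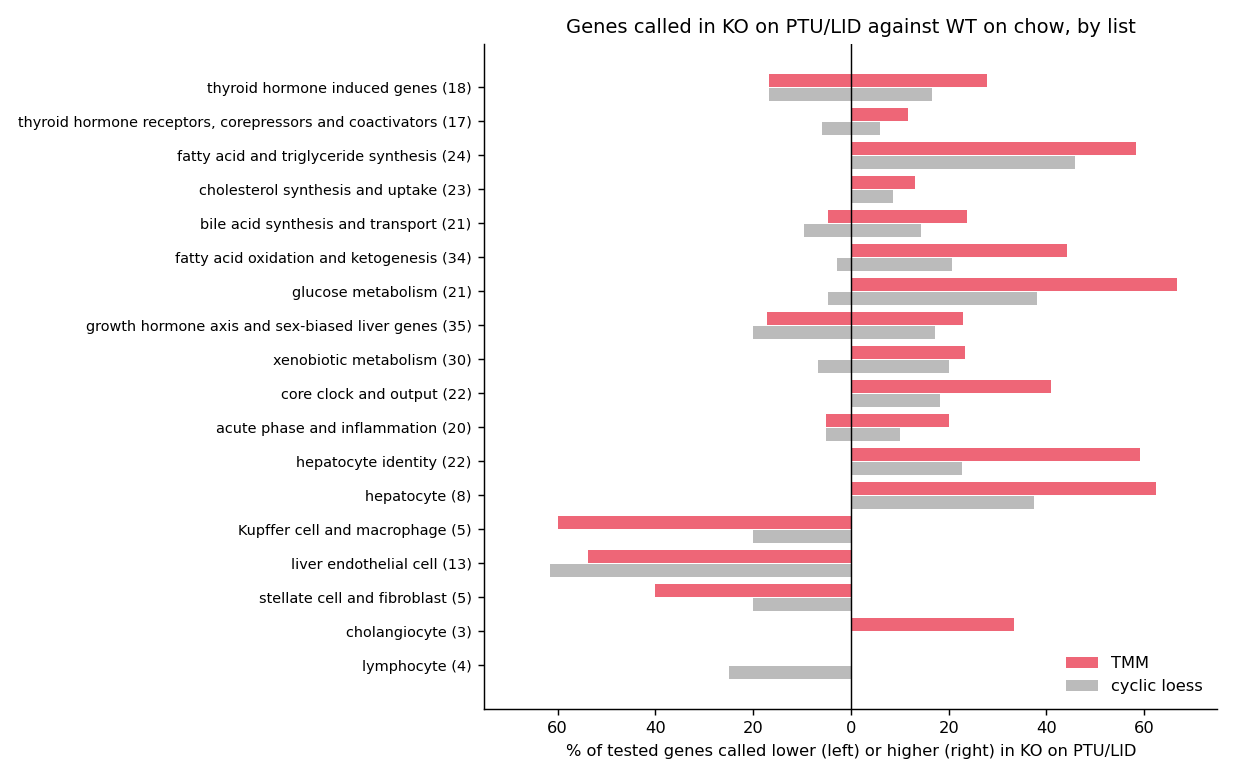
Share of the tested genes of each list (number tested in brackets) called lower, to the left of 0, or higher, to the right, in KO on PTU/LID than in WT on chow (x axis, %; edgeR, adjusted p below 0.05), with TMM and with cyclic loess scaling. Over all genes, 11.2% were higher and 8.11% lower with TMM; fatty acid synthesis keeps 11 of 14 higher calls under cyclic loess, and hepatocyte identity 5 of 13.

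Of the single regions with the largest rises, most were assigned to genes outside the lists, and those assigned to Scd1 and Sult2a2 were exceptions. A region inside Kcnk3, which encodes the potassium channel TASK-1 (chr5:30614491-30615553), rose from 4.43, 6.07 and 3.47 to 28.1, 29.1 and 47.8 CPM, a 7.74-fold increase (log2 difference 2.95 ± 0.28, adjusted p = 7.64e-09). WT on PTU/LID (5.97, 5.17 and 10.7) and KO on chow (6.53, 5.4 and 7.18) stood near WT on chow, and 8 of the 9 regions of Kcnk3 were higher. A region inside Dync2li1, 23.3 kb from the nearest start, that of the sterol exporter gene Abcg8 (chr17:84652330-84653687), rose from 15.8, 11.6 and 7.27 to 60.6, 43.9 and 53.6 CPM (2.24 ± 0.24, adjusted p = 1.94e-07). WT on PTU/LID had 8.96, 10.6 and 9.44 CPM and KO on chow 19.2, 13.2 and 9.32, and neither passed the test against WT on chow (adjusted p = 0.748 and 0.563). All 6 regions of Dync2li1 were higher, and Abcg8 itself rose by 0.66 ± 0.12 (adjusted p = 0.000533). The Scd1 region above and regions assigned to Fabp5, Iqck, Acpp, Sult2a2, Osbpl5, Vegfa and Sec31b completed the 10 largest rises, with log2 differences from 2.24 to 2.74. None of the 10 lost its call when 1 of the 6 libraries was left out.

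Among the largest falls, that at Dio1 came second. The region at the promoter of Avpr1a, the vasopressin receptor 1A (chr10:122450022-122450812), fell from 24.1, 17.1 and 18.5 to 4.86, 3.04 and 3.79 CPM (log2 difference -2.38 ± 0.27, adjusted p = 3.68e-07), and WT on PTU/LID lay between at 11.4, 14.2 and 8.83. Of the 10 largest falls 4 were on chromosome 11, near Elobl, Dhx40, Slfn8 and Cuedc1, while over the whole chromosome 5.42% of regions were lower, beside 5.74% over all regions. The region beside Dhx40 (chr11:86813749-86814532) fell from 18.4, 24.8 and 26.1 to 3.58, 4.97 and 2.92 CPM (-2.59 ± 0.45, adjusted p = 0.00234). WT on PTU/LID overlapped with WT on chow (16.4, 14.9 and 25.5), and KO on chow was lower (3.81, 3.16 and 14.1; adjusted p = 0.0487). That beside Elobl, at -3.12 ± 0.74 (adjusted p = 0.0172), lost its call without library Ptulid_NCoRKO_27ac_232 (0.0927), Ptulid_NCoRKO_27ac_239 (0.0759) or Chow_WT_27ac_99 (0.0513). In a window of chromosome 11 from 85 to 90 Mb, chosen after these values were seen, 23 of 196 regions (11.7%) were lower and 10 higher, and 10 were lower in KO than in WT on chow. Ncor1 lies on the same chromosome, and of the 306 regions within 5 Mb of it 3.92% were higher and 6.54% lower, beside 6.75% and 5.74% over all regions.

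Acetylation at Ncor1 itself overlapped between the groups, with 62.3, 58.1 and 44.5 CPM in WT on chow against 59.4, 55.0 and 47.9 for KO on PTU/LID (log2 difference -0.01, 95% interval -0.34 to 0.31, adjusted p = 0.963). This mark does not check the genotype, since a deletion need not change it. Thra and Thrb differed by 0.06 ± 0.18 and 0.02 ± 0.10. Of 17 receptors and coregulators tested 2 rose, a share near the 11.2% over all genes. They encode parts of the NCoR complex: Tbl1x from 39.5, 42.2 and 42.5 to 80.8, 71.4 and 69.0 CPM (0.82 ± 0.13, adjusted p = 0.000139) and Tbl1xr1 by 0.43 ± 0.10 (adjusted p = 0.00553; 0.26 and adjusted p = 0.122 under cyclic loess).

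Sex-biased and growth hormone genes went both ways, with 8 of 35 higher and 6 lower and a median of 0.11, and with 6 higher and 7 lower under cyclic loess. With TMM, 11.2% of all genes were higher and 8.11% lower. Besides the Mup genes and Slco1a1, Hsd3b5, a male-biased steroid enzyme, fell by 0.77 on the log2 scale (adjusted p = 0.00117). The female-biased sulfotransferase genes Sult2a1 and Sult2a2 rose by 1.66 ± 0.25 and 1.78 ± 0.18 (adjusted p = 0.000337 and 1.33e-06). Both were also higher in KO on chow than in WT on chow, with means of 103.8 against 21.9 CPM for Sult2a1 and 115.4 against 25.2 for Sult2a2 (adjusted p = 8.14e-05 and 5.98e-08), as were all 8 Sult2a genes tested, with a median of 1.51. On PTU/LID the knockout means were 68.3 and 84.8 CPM. A region 26.4 kb from Sult2a7 (chr7:14517333-14521529) fell in KO on PTU/LID. That region held 162, 131 and 150 CPM in WT and 250, 241 and 238 in KO on chow. On PTU/LID it held 22.4, 24.1 and 17.5 in WT and 73.7, 95.2 and 79.4 in KO. The 4 groups did not overlap, and KO on PTU/LID was part of the way back (log2 difference from WT on chow -0.83 ± 0.16, adjusted p = 0.000669). Of the 8 Sult2a genes 4 were higher in KO on PTU/LID than in WT on chow, and 2, Sult2a7 and Sult2a8, were lower as whole genes. The summed Sult2a signal was 782.9 ± 130.5 CPM in WT and 1491 ± 43.3 in KO on chow. On PTU/LID it was 258.5 ± 47.8 in WT and 732.3 ± 113.3 in KO (SD, n = 3). The Sult2a genes are close copies and single members are uncertain.

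Smaller groups are read against the 11.2% of all genes that were higher and the 8.11% that were lower. In bile acid synthesis and transport 5 of 21 were higher and 1, Slco1a1, was lower, and in cholesterol synthesis and uptake 3 of 23 were higher, none of which kept with any 1 library left out, so that the cholesterol genes stood near the share over all genes. In xenobiotic metabolism 7 of 30 were higher, among them Gstt2 (0.82 ± 0.17, adjusted p = 0.00255) and Cyp2a5 (0.68 ± 0.15, adjusted p = 0.00298). In acute phase and inflammation 4 of 20 were higher and 1 lower. Of 22 clock genes 9 were higher, of which 2 kept with any 1 library left out, namely Nfil3, a repressor of clock output (0.89 ± 0.14, adjusted p = 0.000127), and Per2 (0.66 ± 0.11, adjusted p = 0.000237). Under cyclic loess the counts were 3 higher and 2 lower for bile acids, 2 and 0 for cholesterol, 6 and 2 for xenobiotic metabolism, 2 and 1 for acute phase, and 4 and 0 for the clock. Times of collection within the day were not used.

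Genes of hepatocyte identity were called higher only, and markers of endothelial, Kupffer and stellate cells lower only. Of 22 genes of hepatocyte identity 13 were higher and none lower (11.2% and 8.11% over all genes), with a median of 0.34. Of the 13 calls, 6 kept with any 1 library left out and 5 under cyclic loess. Ttr, the thyroid hormone carrier transthyretin, rose from 414.0 ± 18.6 to 595.7 ± 17.5 CPM (log2 difference 0.52 ± 0.09, adjusted p = 0.000394), and Hnf4a by 0.50 ± 0.12 (adjusted p = 0.00508). All 8 hepatocyte markers are also in the identity list. Of these, 5 were higher, and their summed level ran from 3150 to 3800 CPM in WT on chow and from 4360 to 4580 in KO on PTU/LID.

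Of 13 tested endothelial markers 7 were lower and none higher, beside 8.11% lower and 11.2% higher over all genes. The summed level of these markers fell from between 1300 and 1350 CPM to between 997 and 1080. It was between 1060 and 1230 in WT on PTU/LID and between 1030 and 1070 in KO on chow, with 3 markers called lower in each. Pecam1, the adhesion molecule CD31, fell from 158.5 ± 5.5 to 94.4 ± 8.8 CPM (log2 difference -0.75 ± 0.12, adjusted p = 0.000203), and the angiopoietin receptor gene Tek from 12.8 ± 1.88 to 5.26 ± 0.293 CPM (adjusted p = 0.00263). Stab2, a scavenger receptor of sinusoidal endothelium, overlapped between the groups (202, 252 and 210 CPM in WT on chow against 206, 249 and 237). Of 5 tested markers of Kupffer cells and macrophages 3 were lower, none of which kept with any 1 library left out. The 5 summed to 63.1 to 90.4 CPM in WT on chow and 42.6 to 57.1 in KO on PTU/LID. The sums were 41.8 to 44.0 in WT on PTU/LID and 41.8 to 46.3 in KO on chow. The other 8 markers of these cells, the defining Adgre1 and Clec4f among them, had no region that could be tested. Of 5 tested stellate markers 2 were lower, among them Col3a1 by 1.48 on the log2 scale (adjusted p = 0.00269). Their sums were 51.6 to 69.4 CPM in WT on chow and 32.2 to 45.8 in KO on PTU/LID. In WT on PTU/LID they were 42.1 to 57.1 and in KO on chow 31.1 to 45.0. Of 4 lymphocyte markers none was called (at least 113 CPM in WT on chow against 87.1 to 93.1), and of 3 cholangiocyte markers 1 was higher (254 to 284 against 337 to 365). The part of cell composition in the rise of hepatocyte, glucose and lipid genes was not tested. Under cyclic loess the endothelial calls were 8 lower and none higher, those of hepatocyte markers 3 higher, and 1 marker each of Kupffer cells, stellate cells and lymphocytes was lower.

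Changes were more frequent away from promoters. Within 2.5 kb of a RefSeq start 9.04% of 14538 regions were called, inside genes 12.3% of 24153, outside genes within 50 kb 15.8% of 10373 and farther out 18% of 3538. Promoter regions also had the highest median level of these classes, 11.2 CPM against 7.9 to 8.73. By chromosome, leaving out Y with 2 regions and no call, the share ran from 5.34% on the X chromosome to 15.7% on chromosome 4, which carries Dio1 and the Mup cluster and where 347 regions were lower and 251 higher.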

How the data were processed

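H3K27ac was measured in 12 liver libraries, 3 in each group, and the deposited table gives whole-number counts of reads per region and library for 52645 regions with their length (unit other). The submitters' processing notes name, without roles, MACS2 2.1.1, bedtools 2.26.0, Picard 2.8.1, Bowtie2 2.2.1 and bcl2fastq 2.17.1.14, with mm10 as the build. Not given in the sources used here: how the shared regions were made, how duplicates were treated and whether input was subtracted. The lowest count in the table was 1. Library totals ran from 2965505 to 7416187 for the groups compared, so weak regions are measured less precisely than strong ones. Input libraries were not analysed here.

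Counts were fitted with edgeR 4.0.16 (R 4.3.3, quasi-likelihood F test, TMM scaling, filterByExpr with a minimum count of 10) on all 12 libraries together, with a common estimate of the spread. This left 52606 regions, and p-values were adjusted by Benjamini and Hochberg over all of them with a threshold of 0.05. CPM values were computed here. For genes, counts were summed over regions inside a protein-coding RefSeq gene (GRCm38.p6) or nearest to its end within 50 kb; 11459 of 21900 genes had a region and 11447 were tested. The table used has neither exons nor UTRs, so positions are given as promoter, inside a gene or outside.

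Loci were classed as returned with a margin of 1.5-fold on the 95% interval. Named regions were the 10 largest rises and falls among called regions with no overlap between the groups, a mean of at least 3 CPM and 1 region per gene, and the 5 largest PTU/LID effects in each class. Named genes were those of 18 lists (340 genes) that were called or classed. Some genes that met this rule are not reported here by name, though list counts include them. Genes named beyond this rule (Cpt1a and Stab2, for example) stand for list members that were not called. The members, the lists and the comparison were chosen with earlier results of these data known. Mitochondrial share (above or below 2%) was used as a batch measured from the data. Alternatives were DESeq2 1.42.0, its size factors, cyclic loess offsets (limma 3.58.1), no filter, no mitochondrial regions, a term for mitochondrial share, fits within each set, the 6 libraries alone, each library left out, a threshold of 0.01, other margins and other gene windows. The scripts were tested on simulated data. Close gene copies (Mup, Sult2a, Cyp3a, Cyp4a, Cyp2a, Acot) may share reads.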

Additional observations from a re-analysis of the deposited data

Results flagged for a closer look

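At 4 of the named regions the effect of PTU/LID differed between the genotypes, by edgeR's test of the interaction with Benjamini-Hochberg adjustment over all regions. The difference is the log2 effect of PTU/LID in KO minus that in WT. Of all 52606 regions tested, 83 had a positive and 38 a negative difference called. The named regions were chosen by contrasts that enter this difference, so the count of 4 is a description only. Inside Dync2li1 (chr17:84652330-84653687) it was 2.12 ± 0.36 (adjusted p = 0.00344), with an effect of -0.20 in WT and 1.92 in KO. At the region assigned to Sult2a7 (chr7:14517333-14521529) it was 1.24 ± 0.23 (adjusted p = 0.00845), where both genotypes were lower on PTU/LID, by -2.79 in WT and -1.55 in KO. At a region 32.7 kb from Cyp3a11 (chr5:145911961-145913103) it was 1.09 ± 0.23 (adjusted p = 0.0272), with -1.16 in WT and -0.08 in KO. This region was also higher in KO on PTU/LID than in WT on chow (0.56 ± 0.16, adjusted p = 0.0163), a call that was lost without library Chow_WT_27ac_99 (0.0978) or Ptulid_NCoRKO_27ac_232 (0.0764). Beside Sdc1, the gene of the heparan sulfate proteoglycan syndecan-1 (chr12:8829321-8829791), it was 1.53 ± 0.35 (adjusted p = 0.0489), with -1.03 in WT and 0.50 in KO. Its call against WT on chow (0.75 ± 0.23, adjusted p = 0.0307) was lost without library Ptulid_NCoRKO_27ac_239 (0.245), Chow_WT_27ac_99 (0.172), Chow_WT_27ac_106 (0.063) or Ptulid_NCoRKO_27ac_232 (0.0503).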

How the results depend on the processing

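The 6566 regions and 2214 genes called between KO on PTU/LID and WT on chow stayed within 1.5 times of these counts with DESeq2, its size factors, cyclic loess, no filter, no mitochondrial regions, a term for mitochondrial share and the 6 libraries alone. The fits within sets of mitochondrial share had a group of 1 library and show nothing of stability: within the low set, with library Chow_WT_27ac_106 alone for WT on chow, 6376 regions and 2348 genes passed. Within the high set, with library Ptulid_NCoRKO_27ac_211 alone for KO on PTU/LID, 1033 regions (687 higher, 346 lower) and 615 genes passed, at a threshold of 0.01 2508 and 1011, and with only regions within 2.5 kb of gene ends 1204 genes. With each library left out, the counts ran from 2879 to 8683 regions and from 1171 to 3041 genes. Loci still changed (1092 regions, 549 genes) numbered 336 and 176 at 0.01, and from 444 to 1900 and from 230 to 957 with a library left out. Returned regions (107) numbered 256 with the mitochondrial term, 187 under cyclic loess, 230 with a 2-fold and 0 with the narrower margin tried, 39 at 0.01 and 35 to 219 with a library left out. Returned genes (92) numbered 166 with the mitochondrial term, 20 with the narrower margin, 27 at 0.01 and 36 to 167 with a library left out. Regions past WT on chow (10) numbered 18 with the mitochondrial term, 1 at 0.01 and 2 to 30 with a library left out, and such genes (7) 11 with DESeq2, 11 with no filter, 11 without mitochondrial regions, 21 with the mitochondrial term, 1 at 0.01 and 1 to 27 with a library left out. A stricter threshold gives fewer calls by construction. Leaving out a library gave more calls in some fits, with 8683 regions and 3041 genes without library Ptulid_NCoRKO_27ac_211, and fewer in others; the cause of these and the other shifts was not tested. Of the named genes' values 1722 kept their side of the threshold, among them 20 of 7 genes (Abcb4, Cyp27a1, Gpd2, Ncor1, Prlr, Thra and Thrb) that changed sign without being called in either fit; 370 lost and 4 gained the call, and 1 called value turned: with only regions within 2.5 kb of gene ends Ghr stood at 0.12. No paired analysis was possible because the groups share no replicate numbers.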
